A study of Mus musculus with 12 samples.

Results

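The unfolded protein response and the integrated stress response were followed through 40 genes in neurospheres that carried the APPswe and PS1dE9 transgenes. The 40 member genes were taken from a list of endoplasmic reticulum (ER) chaperones, ER stress sensors, genes of ER-associated degradation (ERAD) and ATF4 targets, and every array probe whose RefSeq accession or gene name belonged to a listed gene was used. All 40 had at least 1 expressed probe, 47 of their 48 probes were expressed, and they were 40 of 14330 named genes with an expressed probe. The list was not chosen by any measured value, although results of these arrays were known when it was drawn up. The question was whether the mutant transgenes, or a ligand of the B2 kinin receptor given on top of them, went with a change in these stress genes.

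Neurospheres are floating clusters of neural progenitor cells, here grown from the telencephalon of C57BL/6 mouse embryos on day 13 and then left to differentiate on a coated surface for 7 days without growth factors. WT neurospheres came from wild-type embryos and APP_WT neurospheres from APPswe/PS1dE9 embryos, and neither received a drug. BK_APP neurospheres were APPswe/PS1dE9 cells given 1 µM bradykinin (BK), which activates the B2 receptor, on days 0, 3 and 6 of differentiation, and HOE_APP neurospheres were APPswe/PS1dE9 cells given 1 µM HOE-140, a B2 receptor antagonist, on the same days. BK_APP, HOE_APP and APP_WT neurospheres thus shared both transgenes, and neither drug was given to WT cells. The transgenic line is a single line, and the labels and methods name neither the promoter that drives the transgenes nor how many embryos made up a culture. RNA was compared on 2-color Agilent arrays, with 12 arrays in all: 4 that set APP_WT against WT, 4 that set BK_APP against APP_WT, and 4 with HOE_APP in place of BK_APP. Each array held a replicate of both conditions, and the dyes were swapped on 2 of the 4 arrays of every comparison. The methods call the replicates independent. The labels of the HOE_APP arrays name HOE-140 in both channels, so the direction of those values is likely only. It rests on the channel 1 labels, the titles and the layout of the BK_APP arrays, and turning it would change the sign of every HOE_APP value below.

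Proteins that enter the ER are folded by chaperones and disulfide isomerases, and when unfolded protein builds up, the sensors IRE1 (gene Ern1), ATF6 and PERK (gene Eif2ak3) switch on the unfolded protein response. IRE1 splices the Xbp1 mRNA, ATF6 is cut to a free transcription factor, and both raise chaperones such as BiP (gene Hspa5) and the ERAD machinery. PERK phosphorylates the translation factor eIF2, which other kinases also do when amino acids or heme run short or when double-stranded RNA is present. This integrated stress response lowers protein synthesis in general but favors translation of ATF4, which turns on CHOP (gene Ddit3), Trib3, Chac1 and genes of amino acid supply. In neural cells the pathway is studied in relation to misfolded proteins, and because ATF4 is governed largely at translation, its mRNA is only a partial reading of it.

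Promoters of 16 members, of the 35 with a promoter at hand, carried an element by which these factors are known to act. RefSeq promoters (GRCm38.p6, 250 bases before to 50 after the annotated start) were at hand for 35 members and were searched on both strands for the ER stress element ERSE (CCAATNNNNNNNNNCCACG), for ERSE-II (ATTGGNCCACG), for the core of the unfolded protein response element (TGACGTGG) and for the C/EBP-ATF composite site (TGATGNAA). ERSE stood in 9 of the 35 members (Hspa5, Hsp90b1, Calr, Canx, Pdia6, Dnajc3, Creld2, Syvn1 and Derl3) and in 0.119% of all 32851 promoters. ERSE-II stood in Dnajb11 and Herpud1 and in 0.0365% of all promoters. The C/EBP-ATF site stood in 6 members (Herpud1, Atf3, Trib3, Chac1, Asns and Slc7a11) and in 3.97% of all promoters, whereas the core TGACGTGG was in no member and in 0.676% of all promoters. These motifs were first described in genes such as these, so their presence is a description of the list and no result of the arrays. The windows below, all on the strand of the gene, show the element of the chaperone gene that marks the ATF6 and IRE1 branch (Hspa5), those of the called members with a motif (Dnajc3 and Atf3) and, chosen after values were seen, those of Chac1 and of Herpud1, which held both kinds. Capitals mark the matched motif. The C/EBP-ATF sites shown were matched on the opposite strand, so their capitals are the reverse complement of the motif as written above.
Hspa5, chr2:34772000-34772068, plus strand, ERSE: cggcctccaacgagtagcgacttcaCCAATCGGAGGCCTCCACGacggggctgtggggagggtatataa
Dnajc3, chr14:118937802-118937870, plus strand, ERSE: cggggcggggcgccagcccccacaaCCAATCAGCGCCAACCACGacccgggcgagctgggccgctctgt
Atf3, chr1:191183411-191183468, minus strand, C/EBP-ATF site: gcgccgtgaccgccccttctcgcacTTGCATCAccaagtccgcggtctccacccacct
Chac1, chr2:119351024-119351081, plus strand, C/EBP-ATF site: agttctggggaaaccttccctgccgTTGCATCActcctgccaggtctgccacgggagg
Herpud1, chr8:94386292-94386412, plus strand, C/EBP-ATF site then ERSE-II: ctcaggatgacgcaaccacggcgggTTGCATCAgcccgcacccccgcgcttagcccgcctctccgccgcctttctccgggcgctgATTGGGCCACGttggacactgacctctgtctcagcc

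All values below are log2 ratios of the first-named condition over the second, each formed within an array, and a gene is called where the p of limma was below 0.05 after Benjamini-Hochberg adjustment over all 29361 expressed probes. Between 51.2% and 60.3% of probes were well above background on an array. Arrays of the same dye orientation correlated at r of 0.24 to 0.61 across probes. Those of opposite orientation correlated at 0.24 to 0.46 in APP_WT versus WT but at −0.32 to −0.11 in the BK_APP and HOE_APP comparisons, so probes on the treated arrays tended to change sign with the dye, and the model held a dye term for each comparison. The arrays of APP_WT versus WT lay on 1 slide and the 8 treated arrays on another, so slide and comparison cannot be told apart. Defining markers of the expected cells were present, with all 10 neuronal, all 8 astrocyte and all 8 progenitor markers expressed.

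In APP_WT versus WT, of the 40 members, 7 were called (17.5%), beside 18.5% of all expressed probes, so the members were called about as often as other probes. Atf3, Slc3a2, Dnajc3, Ppp1r15a and Pdia4 were higher, which is 12.5% of the members beside 11.6% of probes. Xbp1 and Eif2ak3 were lower, which is 5% of the members beside 7.00% of probes. The median log2 ratio of the members was 0.019, that of all expressed probes was 0.0039, and 17 of the 40 members lay below 0. The median of the members turned to −0.024 with scanner-processed signals and to −0.11 after median centering of each array, where 31 of the 40 lay below 0 and the median of all probes was −0.065, so no common direction of the members is given. SAM and rank products, the tests named in the methods, were each taken at a p of at most 0.05 without adjustment. Together they called Xbp1 and Atf3 alone among the members, beside 12.1% of probes. In separate fits without the dye term Atf3 was the only member called, beside 6.25% of probes. The direction of the smaller differences depended on the normalization: 62.3% of all called probes were higher in APP_WT after loess and 36.4% after median centering, where the members called were Atf3 (higher) and Xbp1, Eif2ak3 and Sel1l (lower), 10% of the members beside 20.0% of probes.

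**Figure D1:**
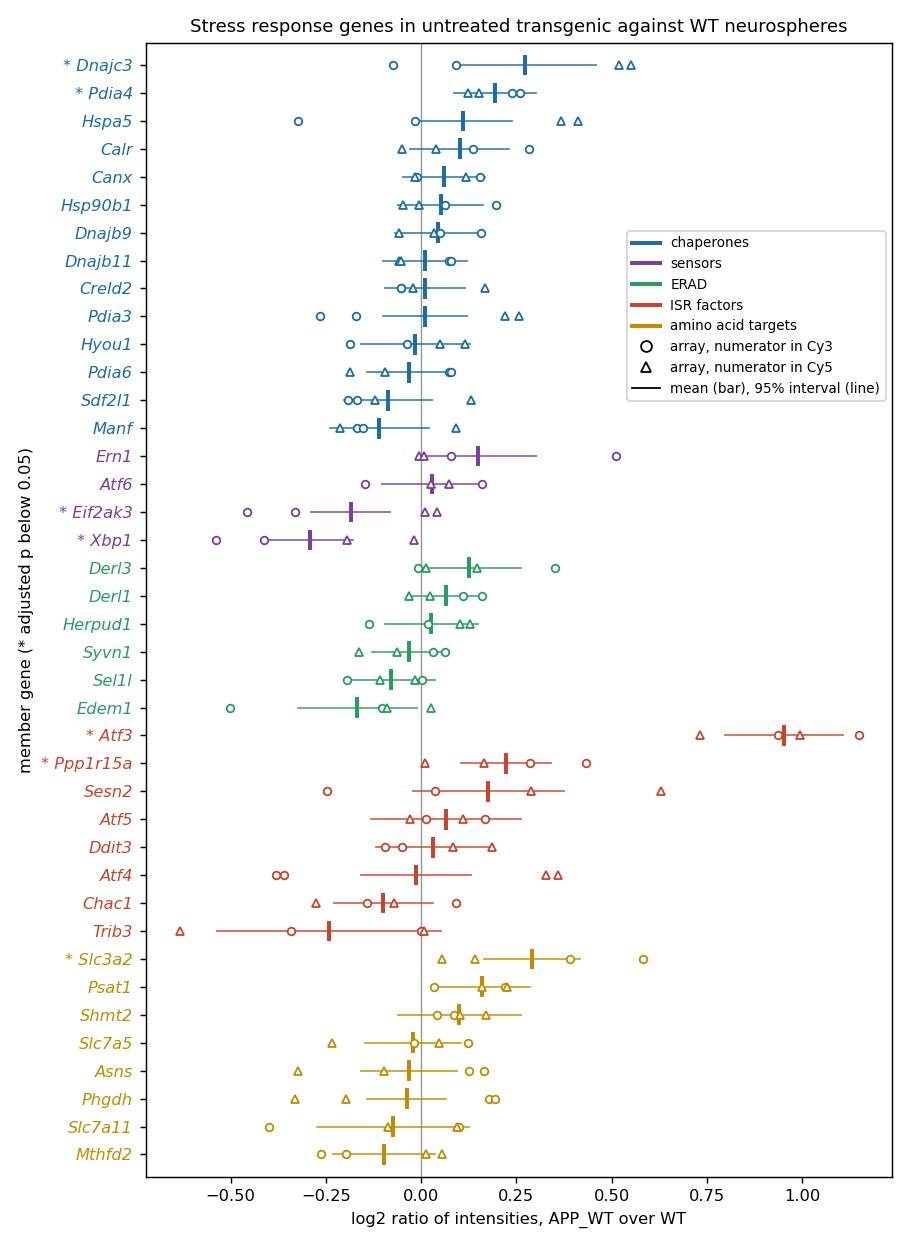
Log2 ratio of APP_WT over WT (x axis) for the 40 members (y axis), by group; open points are the 4 arrays, with circles for APP_WT in Cy3 and triangles for APP_WT in Cy5, bars are means and lines 95% intervals of limma. Atf3 stood apart at 0.73 to 1.15 on all 4 arrays, and in 13 members the circles and the triangles lay on opposite sides of 0.

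Atf3, a stress-induced transcription factor that many signals besides ATF4 can raise, was the member with the largest difference. Its log2 ratios were 0.94, 1.15, 0.99 and 0.73 on replicates 1 to 4. The normalized level of the Atf3 probe was 8.57 to 8.94 (log2 intensity) in the APP_WT channels and 7.46 to 8.01 in the WT channels, so the groups did not overlap. Atf3 was 1.93-fold higher in APP_WT (log2 0.95 ± 0.07 SE, limma adjusted p = 6.76e-06), and it was called under every alternative run, with log2 values of 0.89 to 1.15. ATF4 and CHOP are the factors of this branch named most often with it, and the mRNA of neither passed the test. Atf4 itself gave −0.36, −0.38, 0.33 and 0.36, with the sign following the dye, and a mean of −0.013 (95% interval −0.16 to 0.13). Ddit3, which encodes the pro-apoptotic factor CHOP, gave −0.094, −0.049, 0.083 and 0.19, and its mean was 0.031 (95% interval −0.12 to 0.18, adjusted p = 0.794).

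The other factors and feedback genes of the integrated stress response were mixed. Ppp1r15a (GADD34), which recruits the phosphatase that removes the phosphate from eIF2, gave 0.29, 0.43, 0.17 and 0.011. It was 1.17-fold higher (log2 0.22 ± 0.05 SE, limma adjusted p = 0.0144). Its APP_WT channel levels lay above all WT levels, but the lowest APP_WT level was 10.0699 and the highest WT level 10.0688. The call was lost without replicate 2 or without replicate 3 (adjusted p = 0.0887 and 0.0906), with scanner-processed signals (0.0589) and after median centering (log2 0.11, adjusted p = 0.276). Trib3, a pseudokinase induced by ATF4 and CHOP, gave −0.34, −0.0013, 0.0075 and −0.63. Its level varied more between replicates than between genotypes, since replicate 4 read 9.52 in WT and 8.89 in APP_WT while the other replicates read 7.79 to 8.19. Chac1, a glutathione-degrading enzyme, had a mean of −0.10, Atf5, an ATF4-like factor, one of 0.065, and Sesn2, a sestrin that restrains mTORC1, one of 0.18 with array values from −0.25 to 0.63. Neither Trib3, Chac1, Atf5 nor Sesn2 was called, with adjusted p of at least 0.205.

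Of the sensors, Eif2ak3 and the IRE1 substrate Xbp1 were lower in APP_WT. Xbp1 gave −0.41, −0.54, −0.19 and −0.018. Its channel levels were 11.84 to 12.07 in APP_WT and 12.09 to 12.38 in WT, so all 4 WT levels lay above the APP_WT levels, although by 0.018 only on replicate 4. Xbp1 fell by 0.29 on the log2 scale (SE 0.05, limma adjusted p = 0.00246) and stayed called without any single array. Whether the probe reads the spliced, the unspliced or both forms of the mRNA is not given in the sources used here. Eif2ak3, the gene of PERK, gave −0.46, −0.33, 0.042 and 0.0094, so that it was lower on both arrays with APP_WT in Cy3 and near 0 on both with APP_WT in Cy5. Its mean was −0.18 (SE 0.05, adjusted p = 0.019), with overlapping channel levels, and the call was lost without replicate 1, 3 or 4 (adjusted p = 0.0578 to 0.0944).

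Atf6 and Ern1 were not called. Atf6 gave 0.16, −0.15, 0.026 and 0.074, around a mean of 0.028 (95% interval −0.10 to 0.16). Ern1, the gene of IRE1, gave 0.077, 0.51, −0.0048 and 0.0085, and its mean of 0.15 (adjusted p = 0.174) came mostly from replicate 2. Without replicate 1 Ern1 was called, at 0.26 (adjusted p = 0.0202).

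The ER chaperones and folding enzymes, which are the main targets of XBP1 and ATF6, showed 2 calls among 14 genes (14.3%, beside the 18.5% of all probes) and a median of 0.028, or −0.12 after median centering. Hspa5 (BiP), the ER chaperone most used as a reading of ER stress, gave −0.32, −0.016, 0.41 and 0.37. The arrays split by dye, the channel levels overlapped (13.53 to 13.72 in APP_WT and 13.31 to 13.85 in WT), and the mean of 0.11 (95% interval −0.018 to 0.24, limma adjusted p = 0.223) did not pass the test. Median centering of the arrays in place of loess gave Hspa5 −0.076. Dnajc3 (p58IPK), a co-chaperone that also inhibits eIF2 kinases, gave −0.073, 0.091, 0.55 and 0.52, again with the higher values on the arrays with APP_WT in Cy5. Its mean was 0.27 ± 0.08 SE (1.21-fold, adjusted p = 0.0476), the call was lost without any single array, and with replicate number as a random block the adjusted p was 0.0539. Pdia4 (ERp72), a disulfide isomerase, was the chaperone with the smallest spread between arrays, at 0.24, 0.26, 0.12 and 0.15. It was 1.14-fold higher (log2 0.19 ± 0.05 SE, adjusted p = 0.0193), its channel levels overlapped, and no fit that left out 1 array kept the call (adjusted p = 0.0503 to 0.0780). After median centering Pdia4 was at 0.061 (adjusted p = 0.623).

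The remaining 12 chaperone genes had mean log2 ratios between −0.11 and 0.11, and no adjusted p among them was below 0.223. Grp94 (Hsp90b1), calreticulin (Calr) and calnexin (Canx) stood at 0.051, 0.10 and 0.060. The isomerases Pdia3 and Pdia6 stood at 0.0099 and −0.033. The J-domain proteins Dnajb9 and Dnajb11 stood at 0.045 and 0.010, Hyou1 (GRP170) at −0.015, Creld2 at 0.010, and the secreted stress protein Manf and Sdf2l1 were on the lower side at −0.11 and −0.088. Their 95% intervals after loess reached no further than −0.24 and 0.24, whereas after median centering the Manf value itself was −0.26. These intervals leave out the difference between dye orientations, and single arrays went beyond them, as with Hspa5 at −0.32 and 0.41. The Hyou1 probe was dim, well above background in 3 APP_WT and 2 WT channels.

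None of the 6 ERAD genes was called by limma, beside 18.5% of all probes, and their median was −0.0028. At an unadjusted p below 0.05 there was 1 (Edem1, lower), where 4071 of 29361 probes were lower. After median centering 5 of the 6 lay below 0, with a median of −0.15 beside −0.065 for all probes. Sel1l was then called (−0.20, limma adjusted p = 0.0438). Edem1, a lectin that extracts mannose-trimmed glycoproteins, had the lowest mean, −0.17, with −0.50 on replicate 2 and values of −0.10 to 0.026 on the others (adjusted p = 0.133). The ubiquitin ligase Syvn1 (HRD1), its partner Sel1l and the channel protein Derl1 stood at −0.033, −0.080 and 0.066. Herpud1, which holds both an ERSE-II and a C/EBP-ATF site, stood at 0.027. Derl3 was at 0.13 but was well above background in only 3 APP_WT channels and 1 WT channel.

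Among the 8 ATF4 targets of amino acid and one-carbon metabolism, 1 was called (12.5%, beside 18.5% of all probes) and the median was −0.027. Slc3a2 (4F2hc), the heavy chain shared by several amino acid transporters, gave 0.39, 0.58, 0.14 and 0.054. It was 1.22-fold higher (log2 0.29 ± 0.06 SE, limma adjusted p = 0.0048), with overlapping channel levels, and it stayed called without any single array but not after median centering, where its log2 value was 0.13 (adjusted p = 0.281). Its light chain partner Slc7a5 (LAT1) was read by 2 probes that differed: the brighter gave −0.021 (adjusted p = 0.838) and the dimmer 0.34 (adjusted p = 0.0156). The cystine transporter Slc7a11 stood at −0.073. The serine pathway genes Phgdh and Psat1 stood at −0.038 and 0.16, the latter above 0 on all 4 arrays with an adjusted p of 0.0753. Asparagine synthetase (Asns) and the folate enzymes Shmt2 and Mthfd2 stood at −0.032, 0.10 and −0.098. Of the 7 members with another expressed probe, Slc7a5 was the only one whose other probe was called.

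**Figure D2:**
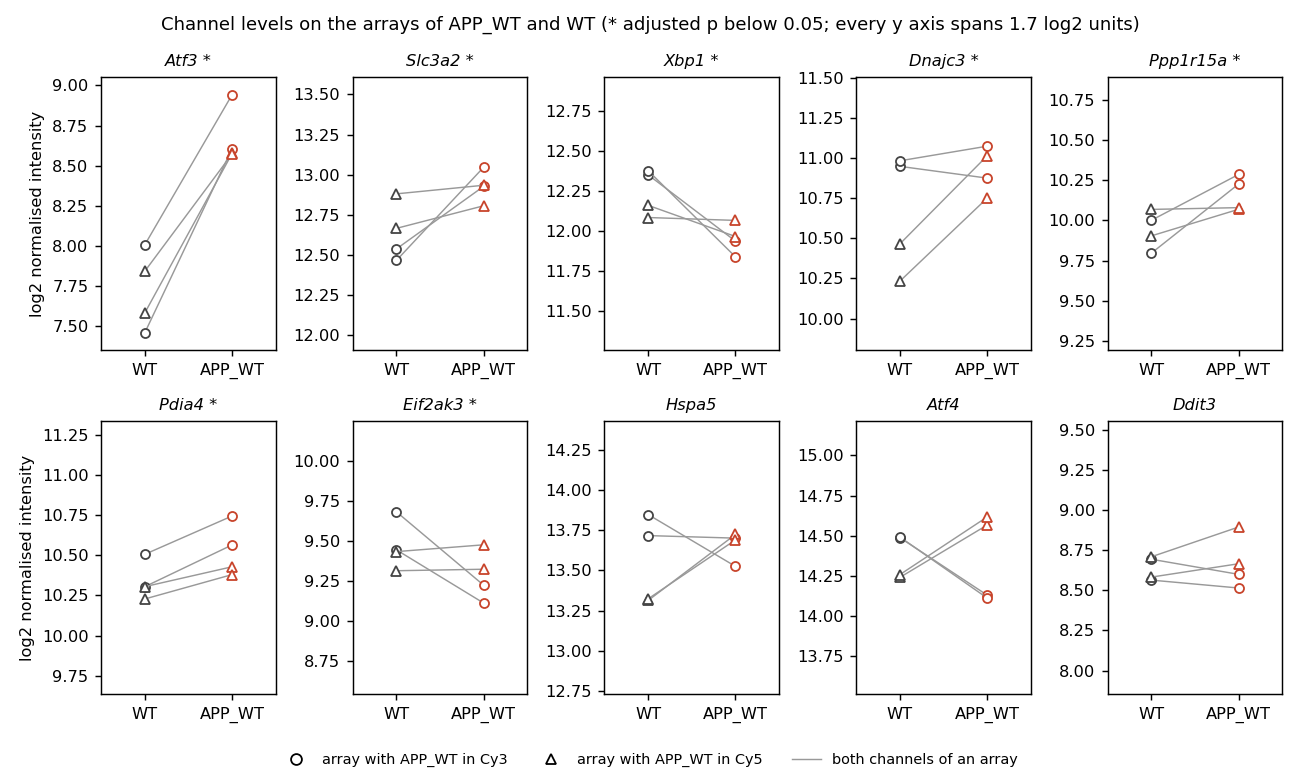
Log2 normalized intensity (y axis, the same span in every panel) of the WT and APP_WT channels (x axis) of the 4 arrays, joined by lines, for the 7 called members and for Hspa5, Atf4 and Ddit3; circles are arrays with APP_WT in Cy3, triangles arrays with APP_WT in Cy5. The lines of Atf3 all rise and those of Xbp1 all fall, whereas those of Hspa5 and Atf4 cross by dye.

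The dye orientation, or the pair of replicates that goes with it, ran through much of the list. In APP_WT versus WT the sign of the log2 ratio switched with the dye for 13 of the 40 members, among them Hspa5, Hsp90b1, Pdia3, Atf4, Ddit3 and Eif2ak3. In BK_APP and HOE_APP versus APP_WT this was so for 16 and 17 members. The share of all expressed probes that switched was not counted, so these counts are not shown to be particular to the members. Across all probes, treated arrays of opposite orientation correlated at −0.32 to −0.11. For members that switched, the mean averages values of opposite sign. In APP_WT versus WT these values stayed within 0.1 of 0 for Dnajb11 and were beyond 0.3 on every array for Atf4. Members with and without an ERSE were also close to each other in APP_WT versus WT, with medians of 0.060 over 9 genes and 0.010 over 26, and 1 gene with an ERSE (Dnajc3) was called. The 6 members with a C/EBP-ATF site had a median of −0.053, with Atf3 as the called one.

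Other genes of the same pathways, and genes of cytosolic heat shock, gave a similar picture and a few larger single changes. Of 135 further genes in 8 lists, 126 were expressed, and 23 (18 higher and 5 lower, 18.3%) were called in APP_WT versus WT. ER folding and transport had 1 call among 30 expressed genes (Sil1, the nucleotide exchange factor of BiP), ERAD had 2 among 16, eIF2, eIF2B and the eIF2 phosphatase had none among 10 (1 at an unadjusted p below 0.05), and the tRNA synthetases had 3 among 19. The list of other unfolded protein response regulators had 4 calls among 9 (Creb3l1, Tmbim6, Wfs1 and Traf2, all higher), and the list of ATF4 partners and targets had 8 among 23, which are 44.4% and 34.8% beside the 18.5% of all probes. The cytosolic heat shock list, which is not part of either response, had 4 calls among 16 (25%), 3 higher and 1 lower (Hspb1, Hspb8, Dnaja1 and Bag3). No list was tested. The 3 largest increases were Hspb8, Slc7a3 and Eif2ak2. Hspb8, a small heat shock protein of selective autophagy, came from the heat shock list. Slc7a3 is a cationic amino acid transporter, and Eif2ak2 (PKR) is the interferon-induced eIF2 kinase that senses double-stranded RNA. Hspb8 gave 1.49, 1.59, 1.36 and 1.37 and was 2.73-fold higher (log2 1.45 ± 0.07 SE, limma adjusted p = 3.66e-07). Slc7a3 gave 0.64, 0.69, 0.68 and 0.75 (log2 0.69 ± 0.07 SE, adjusted p = 4.43e-05). The channels of APP_WT and WT did not overlap for these genes.

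Eif2ak2 set PKR apart from the other eIF2 kinases. It gave 0.31, 0.59, 0.87 and 0.94, a mean of 0.68 ± 0.08 SE (limma adjusted p = 0.000156), with no overlap of the channels. PERK (Eif2ak3) was lower, as above, while the heme-regulated Eif2ak1 and the amino acid sensor Eif2ak4 (GCN2) stood at 0.022 and −0.13 (adjusted p = 0.851 and 0.162). The 3 largest decreases among called genes were Ddit4 (REDD1), an mTORC1 inhibitor, the tyrosyl-tRNA synthetase Yars and the lipoprotein receptor Vldlr. Ddit4 gave −0.36, −0.35, −0.23 and −0.32, and it fell by 0.31 on the log2 scale (SE 0.05, adjusted p = 0.000868). Yars and Vldlr were at −0.22 and −0.20 (adjusted p = 0.0134 and 0.0413). Yars was a dim probe, well above background in 3 APP_WT channels, and its value was −0.60 with scanner-processed signals. Its call was lost without replicate 1 or 3 (adjusted p = 0.0679 and 0.0707). The call of Vldlr was lost with scanner-processed signals (adjusted p = 0.0646), without the filter on dim probes (0.0855) and without replicate 1, 2 or 4 (0.0752 to 0.236), and median centering gave −0.35 for Vldlr and −0.50 for Ddit4.

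**Figure D3:**
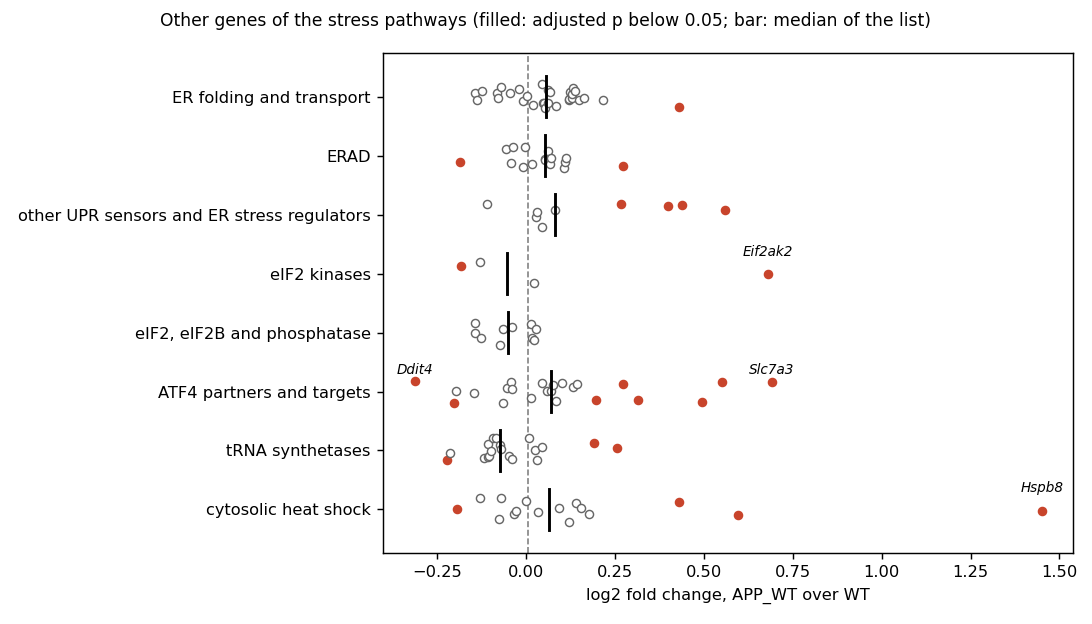
Log2 fold change of APP_WT over WT (x axis) for expressed genes of 8 further lists, with cytosolic heat shock among them (y axis). Each point is a gene, filled where the limma adjusted p was below 0.05. Black bars are list medians and the dashed line is the median of all expressed probes, 0.0039. Calls are scattered over the lists, with Hspb8 (1.45), Slc7a3 (0.69) and Eif2ak2 (0.68) farthest to the right.

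Cell markers moved in the same comparison. Of 14 expressed microglial markers 13 were called and higher in APP_WT, with a median log2 ratio of 1.27, and their summed intensity was 14187 to 18286 in APP_WT and 9931 to 12092 in WT. In the WT channels Laptm5 was not well above background on any array, and Cx3cr1, C1qa, Fcrls, Tmem119, Trem2, Tyrobp and Ptprc were so on 1 or 2 of them. Of 8 astrocyte markers 7 were called and higher, with a median of 0.37. The 6 fibroblast and pericyte markers were all below 0, with 3 called and a median of −0.20. Neuronal markers were split, with 3 called higher and 2 lower among 10, and so were progenitor markers, with 2 higher (Vim at 0.97 and Nes at 0.55) and 2 lower (Hes5 at −0.63 and Pax6 at −0.16) among 8. Of 7 oligodendrocyte markers 1 was called in each direction, and of 3 endothelial markers none. The part of these cells in the values of Atf3, Hspb8, Eif2ak2 and the other called genes was not tested. In such bulk RNA, more cells of a type and more RNA per cell cannot be told apart.

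In BK_APP versus APP_WT no member and 0% of probes passed the adjusted test of limma. At an unadjusted p below 0.05 there were 5 of 40 members (12.5%) beside 4.47% of all probes, and all 5 were lower in BK_APP, beside 2.36% of probes in that direction. These were Atf5, Trib3, Chac1, Mthfd2 and Slc7a5, each a factor or target of the ATF4 branch. SAM and rank products, also without adjustment, called 5 members as well (Atf5, Trib3, Chac1, Slc7a11 and Slc7a5), beside 1.84% of probes. No set was tested, and the counts of unadjusted p depended on single arrays: without replicate 2 only Slc7a5 remained below 0.05, and without the other replicates 4 or 5 members did. After median centering Atf5, Trib3, Chac1 and Slc7a11 were lower at that p (10% of the members beside 0.834% of probes) and Pdia3 was higher (2.5% beside 2.89%), while Mthfd2 and Slc7a5 were not below 0.05.

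Trib3 gave −0.15, −0.25, −0.14 and −0.76 on the BK_APP arrays. All 4 arrays were below 0, but replicate 4 lay far from the others, and the channel levels overlapped. The mean of Trib3 was −0.33 ± 0.13 SE (0.798-fold, limma adjusted p = 0.967). Atf5 gave −0.13, −0.66, −0.22 and −0.21, with BK_APP levels of 12.65 to 12.88 below all APP_WT levels of 12.96 to 13.32. Its mean was −0.31 ± 0.09 SE (adjusted p = 0.967), and here replicate 2 was the array that stood apart. Chac1 gave −0.024, −0.19, −0.29 and −0.28, with a mean of −0.19 ± 0.06 SE. These values did not pass the adjusted test.

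After loess the amino acid targets were all below 0 in BK_APP, from −0.19 to −0.025, with a median of −0.048 beside −0.0046 for all probes, but after median centering 5 of the 8 lay above 0 and their median was 0.024 beside 0.037 for all probes. Slc7a5 stood at −0.19, Slc7a11 at −0.19 and Mthfd2 at −0.18. The other probe of Slc7a5 gave −0.15. The chaperones had a median of 0.041 (0.13 after median centering) and lay between −0.080 (Dnajc3) and 0.12 (Manf), and the ERAD genes between −0.020 and 0.030. Hspa5 gave 0.12, −0.011, 0.033 and −0.0016, and Xbp1 gave −0.033, 0.079, 0.16 and 0.24, with means of 0.035 and 0.11. Atf4 gave 0.055, 0.49, −0.28 and −0.31 with a mean of −0.012, and Ddit3 gave −0.099, 0.065, 0.12 and −0.0071 with a mean of 0.019. Neither Hspa5, the chaperone that reads the ATF6 and XBP1 branch, nor Ddit3 at the end of the PERK branch passed the test. Since no probe did in BK_APP, this outcome tells nothing particular about these branches. Atf3, the member farthest from 0 in APP_WT versus WT, stood at 0.039, and the sensors Atf6, Ern1 and Eif2ak3 stood at −0.012, −0.034 and 0.018. Of the 126 further genes of the 8 lists limma called none. At an unadjusted p below 0.05 there were 7 of the 126 (5 lower and 2 higher), beside 4.47% of all probes.

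In HOE_APP versus APP_WT, too, no member and 0% of probes passed the adjusted test. At an unadjusted p below 0.05 there were 4 members (10%) beside 5.03% of probes. Atf5, Trib3 and Chac1 were lower, 7.5% of the members beside 2.72% of probes in that direction, and Xbp1 was higher. After median centering the balance turned: Trib3 alone was lower at that p (2.5% of the members beside 1.00% of probes), and 8 members were higher (20% beside 9.45% of probes), namely Hspa5, Calr, Creld2, Xbp1, Eif2ak3, Herpud1, Atf4 and Phgdh. SAM and rank products, again without adjustment, called Atf5, Trib3 and Chac1, beside 2.31% of probes. BK_APP and HOE_APP were both compared with APP_WT neurospheres of the same replicate numbers. Whether these were the same cultures was not tested. If they were, a level particular to an APP_WT culture would enter both comparisons. The values are set side by side without a test of their likeness.

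Trib3 gave −0.33, −0.20, −0.61 and −1.25 on the HOE_APP arrays, with the mean farthest from 0 of any member there. Its levels were 7.35 to 7.74 in HOE_APP and 7.95 to 8.75 in APP_WT and did not overlap. The mean was −0.60 ± 0.13 SE (0.660-fold, limma adjusted p = 0.924, unadjusted p = 0.000959). Replicate 4 was again the lowest, and in that replicate untreated APP_WT read 8.75 on the HOE_APP array, 8.59 on the BK_APP array and 8.89 on the array with WT, above the 7.79 to 7.99 of the other replicates. Atf5 gave −0.14, −0.59, −0.16 and −0.16, with a mean of −0.26 ± 0.09 SE and replicate 2 apart from the others, and its unadjusted p was no longer below 0.05 without that replicate. Chac1 gave −0.10, −0.17, −0.23 and −0.37, with a mean of −0.22 ± 0.06 SE and overlapping levels. Median centering gave Trib3 −0.56, Atf5 −0.13 and Chac1 −0.13.

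**Figure D4:**
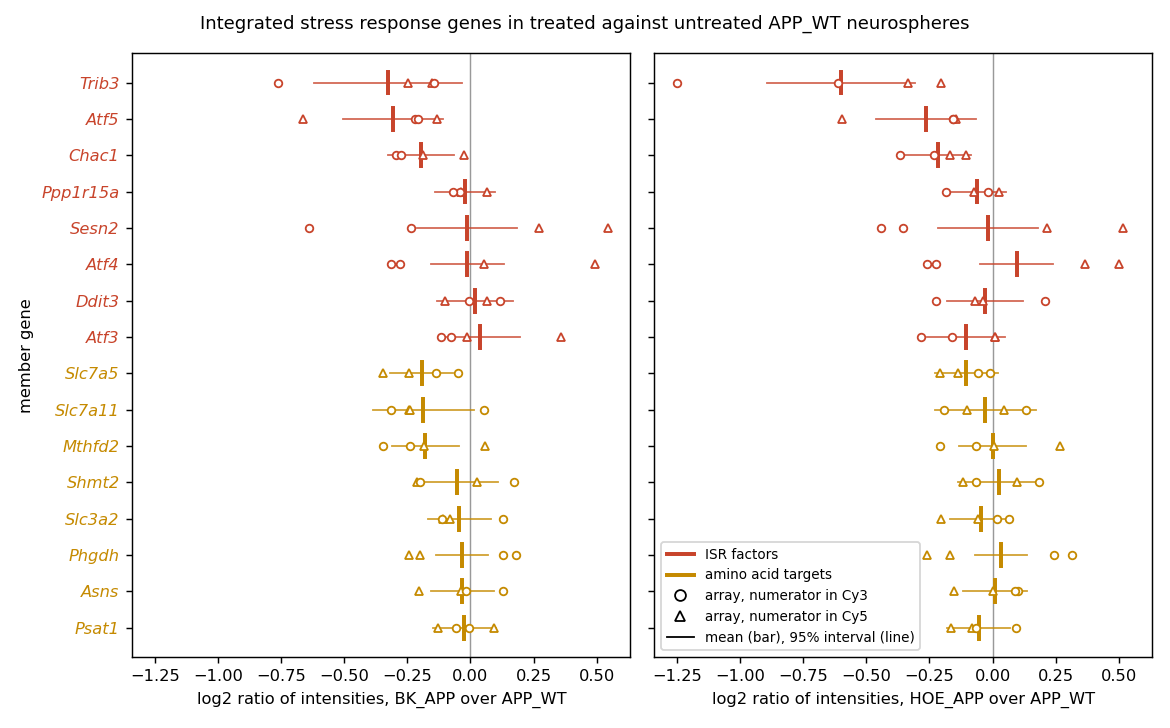
Log2 ratio of BK_APP over APP_WT (left) and HOE_APP over APP_WT (right) on the x axes for the 16 factors and targets of the integrated stress response (y axis); open points are the 4 arrays of a comparison, with circles for the treated sample in Cy3 and triangles for it in Cy5, bars are means and lines 95% intervals of limma. Trib3, Atf5, Chac1 and Slc7a5 lay below 0 on every array of both panels, with replicate 4 of Trib3 (−0.76 and −1.25) and replicate 2 of Atf5 (−0.66 and −0.59) farthest from the rest.

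The other anchors of the pathway, like all probes in HOE_APP, did not pass the adjusted test. Hspa5 gave 0.082, −0.040, 0.052 and 0.14, with a mean of 0.059 (95% interval −0.070 to 0.19). Xbp1 gave 0.0027, 0.013, 0.36 and 0.32, which again split by dye, and its mean of 0.17 had an unadjusted p of 0.00583 and an adjusted p of 0.924. Atf4 gave 0.37, 0.50, −0.22 and −0.26, and its other probe had a mean of 0.17 where the brighter had 0.096. Median centering placed Hspa5 at 0.20, Xbp1 at 0.30 and Atf4 at 0.24, with unadjusted p of 0.0149, 0.00603 and 0.0398 and the median of all probes at 0.076. Ddit3 gave −0.038, −0.070, 0.21 and −0.22, Atf3 had a mean of −0.11, and Atf6, Ern1 and Eif2ak3 had means of −0.010, −0.058 and 0.056. The chaperones lay between −0.11 and 0.074, the ERAD genes between −0.036 and 0.13 and the amino acid targets between −0.10 and 0.032. Of the 126 further genes of the other lists limma called none. At an unadjusted p below 0.05 there were 6 of the 126 (5 lower and 1 higher), beside 5.03% of all probes.

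The treatments, given at the same dose and days, were compared as the difference BK_APP minus HOE_APP over all 40 members. No array held both, so this is a difference of means that were each measured against APP_WT. BK is a peptide agonist and HOE-140 a modified peptide antagonist of the same receptor. No member and 0% of probes passed the adjusted test, and 1 member (2.5%) had an unadjusted p below 0.05, beside 2.50% of probes. This was Pdia4, with a difference of 0.16 (95% interval 0.011 to 0.32) between means of 0.068 in BK_APP and −0.097 in HOE_APP. Trib3 differed by 0.27 (95% interval −0.14 to 0.69) and Mthfd2 by −0.18 (95% interval −0.37 to 0.010). Same-numbered BK_APP and HOE_APP arrays share a dye orientation and deviated together, and in a fit of their paired differences, chosen after seeing the data, no member passed the adjusted test either, while 5 members (12.5%) beside 8.56% of probes had an unadjusted p below 0.05. In that fit the interval was 0.13 to 0.42 for Trib3 (differences of 0.18, −0.043, 0.47 and 0.49), −0.32 to −0.034 for Mthfd2 (−0.21, −0.19, −0.28 and −0.035) and 0.022 to 0.31 for Pdia4 (0.15, 0.074, 0.32 and 0.11). Pdia3, at 0.13, and Slc7a11, at −0.16, were the other such members. These values rest on the likely direction of HOE_APP. With its sign turned, 5 members (Xbp1, Atf5, Trib3, Chac1 and Slc7a5; 12.5%) beside 7.93% of probes had an unadjusted p below 0.05, and Pdia4 was not among them. The data do not show that BK and HOE-140 acted alike on these genes.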

How the data were processed

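Red and green median spot intensities and local backgrounds were deposited per array, as extracted by the authors with Agilent Feature Extraction (version 11.0.1.1 per the file headers). The deposited log10 ratio of processed signals, red over green, and the authors' series table of log2 ratios, which matches it with the sign of the labels on all 12 arrays, were used as alternatives only. Mean intensities had been planned; medians are what the files hold. In R 4.3.3 with limma 3.58.1, intensities were corrected by normexp (offset 50) and loess-normalized (span 0.3) with control and non-uniform spots at weight 0. Channel levels and summed marker intensities, but not the tested log2 ratios, went through a further step between arrays (Aquantile). It gave the average intensities of all arrays the same distribution. Spots of a probe were averaged, and ratios were turned to run from treated or transgenic to untreated or WT. Of 62976 spots 3671 were controls, leaving 55681 probes. A probe was expressed if well above background in the channel of a condition on at least 3 of 4 arrays of any comparison. Probes were named through RefSeq accessions (27509 of 29150 matched, GRCm38.p6), and a gene was represented by its brightest expressed probe. One model held a mean and a dye term per comparison (6 coefficients, 6 residual degrees of freedom). A value missing on an array (461 expressed probes) was left out of the fit. P-values, adjusted over 29361 probes, and the SE and intervals measure the spread between arrays of the same comparison and dye orientation, pooled over comparisons. The number of arrays limits the precision. Differences between arrays of opposite orientation, which also hold different replicates, went into the dye term. They did not widen the SE, which is thus not the full spread between replicates. In APP_WT versus WT the standard deviation over the 4 arrays was 0.35 for Hspa5 and 0.23 for Xbp1. The SE of limma were 0.058 and 0.050.

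Members and lists were chosen with earlier results of these data known. Values of every array are given for called members, for the sensors and factors defining each arm, for the 3 treated-group members with the largest change of one sign, and, from the further lists, for the 3 largest increases and decreases and the eIF2 kinases, the last partly as means. BK_APP and HOE_APP arrays of the same number deviated together (r = 0.51 to 0.67 over probes, and 0.42 to 0.43 with the dye orientation they share removed), so a fit with replicate number as a random block (statmod 1.5.0) was run. Other alternatives were the offset, the normalization, the filters, separate fits, SAM with rank products (100 permutations) and leaving out each array. The limma and SAM steps were tested on simulated data.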

Additional observations from a re-analysis of the deposited data

Results flagged for a closer look

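Of 34 groups of 4 arrays tested, 4 had an array whose gap to its nearest neighbor, as a share of the range of the group, passed Dixon's 95% critical value. The nominal rate of about 1 in 20 does not apply here. Many of the groups were named for large changes on these arrays, and the arrays of a group differ in dye orientation. For Ern1 in APP_WT versus WT the gap was 0.841 of the range, with replicate 2 at 0.51 and the other arrays at −0.0048 to 0.077. For Trib3 in BK_APP versus APP_WT it was 0.833, with replicate 4 at −0.76 and the others at −0.25 to −0.14. For Atf5 it was 0.8405 in BK_APP, with replicate 2 at −0.66 and the others at −0.22 to −0.13. In HOE_APP it was 0.971 for Atf5, with replicate 2 at −0.59 and the others at −0.16 to −0.14. The Atf5 values of both treatments come from arrays with APP_WT of replicate 2, which read 13.32 and 13.33 there, and whether those channels hold the same RNA was not tested.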

How the results depend on the processing

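Atf3 was called under every alternative run. Xbp1 and Slc3a2 were called without any single array, but neither in separate fits without the dye term (adjusted p = 0.157 and 0.164 by limma) and Slc3a2 not after median centering. In APP_WT versus WT, where 7 members were called, SAM with rank products called 2, median centering 4 (Sel1l, not one of the 7, among them), separate fits without the dye term 1 and fits without one array 3 to 6, not all of them among the 7 (Ern1 was called without replicate 1). The called probes numbered 3529 by SAM with rank products and 1834 in the separate fits. SAM with rank products, which were not adjusted, called 535 probes and 5 members in BK_APP and 676 probes and 3 members in HOE_APP. Limma called 0 there after adjustment, while 1311 and 1476 probes had an unadjusted p of limma below 0.05. Without one array limma called 0 to 62 probes in BK_APP, 0 to 9 in HOE_APP and 0 to 13 in BK_APP minus HOE_APP. Without BK_APP replicate 1 the counts were 62 and 13, and without HOE_APP replicate 4 the count was 9.

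The median of the members in APP_WT versus WT was −0.024 with scanner-processed signals, −0.024 with the deposited log2 ratios and −0.11 after median centering, which gave 0.064 in BK_APP and 0.11 in HOE_APP. Median centering moved the median of all probes to −0.065, 0.037 and 0.076. Values near 0 changed sign. In APP_WT versus WT, scanner-processed signals, deposited ratios and median centering gave Atf6 −0.20, −0.20 and −0.0038, Ddit3 −0.14, −0.14 and −0.027, and Eif2ak1 −0.15, −0.15 and −0.048, and median centering gave Hspa5 −0.076. In BK_APP they gave Atf4 0.0089, 0.0088 and 0.080, and the first and second gave Ddit3 −0.0058 and −0.0060. In HOE_APP median centering gave Ddit3 0.032. Without one array, Atf6 ranged from −0.049 to 0.11 in APP_WT versus WT, Atf4 from −0.12 to 0.097 and Ddit3 from −0.022 to 0.060 in BK_APP, and Ddit3 from −0.14 to 0.078 in HOE_APP. The cause of these shifts was not tested.

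With replicate number as a random block 5373 probes and 6 members were called in APP_WT versus WT, Dnajc3 being lost. The block changed no other member's call, and 0 were called in the treated comparisons. A block that turned every ratio to have APP_WT as denominator, chosen after seeing the data, gave 5501 probes and 7 members. Paired differences of same-numbered arrays, also chosen after seeing the data, called 0 probes and 0 members in BK_APP minus HOE_APP. Turning the sign of HOE_APP left 0 probes and 0 members called in BK_APP minus HOE_APP.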
